A study of Mus musculus with 6 samples.

Results

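The 10 genes studied belong to the hypoxia-inducible factor (HIF) pathway and were followed in retinal RNA-seq counts. They are the HIF alpha subunits Hif1a, Epas1 and Hif3a, their partner Arnt, the prolyl hydroxylases Egln1 and Egln3, and the target genes Vegfa, Bnip3, Adm and Ankrd37. The 10 genes, of 24062 in the count table, were chosen by name with the TKO and DKO counts of these same libraries already known, so their differences between genotypes are given as descriptions without a test. All 10 had enough counts to enter the fit across 16904 genes. The libraries were made from Rb1/p107/Hells TKO retinae (Chx10-Cre; Rb1 lox/lox; p107-/-; Hells lox/lox; 3 libraries) and from Rb1/p107 DKO retinae (Chx10-Cre; Rb1 lox/lox; p107-/-; 3 libraries), all C57BL/6 by label (C57BL/6N in the paper's methods) and at postnatal day 21. The genotypes therefore share the floxed Rb1 alleles, the p107 deletion and the Cre, and the floxed Hells alleles separate them. Chx10-Cre is active in retinal progenitors in a mosaic pattern, so unrecombined cells remain in each retina, and no Cre-negative or wild-type retina is part of the comparison. The paper describes 3 retinae of each genotype, but neither it nor the labels say outright that these came from different animals. Each count column carries its own number, whose meaning is not given. The spread between libraries and the p-values built on it may thus be partly technical.

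HIF is a transcription factor made of an oxygen-labile alpha subunit and the stable partner ARNT. In the presence of oxygen the EGLN prolyl hydroxylases mark the alpha subunit for recognition by VHL and degradation, and in low oxygen the dimer accumulates, binds hypoxia response elements and raises genes of glycolysis, angiogenesis, mitophagy and its own feedback control. Much of this control acts on the protein, which RNA counts do not read. In the retina the pathway is best known for VEGF-A, which guides the growth of the retinal vessels toward oxygen-poor neurons and glia.

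Library totals ranged from 10343907 to 14203098 counts. Normalized counts of Hells, the gene that distinguishes the genotypes, were 60.8, 68.4 and 83.5 for TKO replicates 1 to 3 and 678, 523 and 395 for DKO replicates 1 to 3 (log2 fold change -2.91, standard error 0.225, adjusted p = 0.00359 in edgeR's quasi-likelihood test). Markers of dividing cells, given below, also fell in TKO retinae, and how much of the Hells difference comes from the deletion alone was not tested. A normalized count is a count divided by the TMM-scaled size of its library relative to the mean, and every log2 fold change is TKO minus DKO. Rb1, floxed in both genotypes, had a log2 fold change of 0.34 (edgeR adjusted p = 0.0388), and Rbl1, which encodes p107, of 0.13 (edgeR adjusted p = 0.839). Over all 16904 genes the median log2 fold change was -0.011. Library size alone, without TMM, moves that median to -0.17.

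Several cell type markers differed between the genotypes in these whole-retina libraries. A marker is said to rise or fall at an adjusted p of at most 0.05 in edgeR's test. By that rule 7.35% of all genes tested rose and 9.20% fell. All 12 rod markers rose in TKO retinae, and their summed normalized counts were 396550 to 800986 in TKO and 135956 to 259142 in DKO. All 10 markers of dividing cells fell, with sums of 2014 to 4478 in TKO and 8419 to 15986 in DKO. Of 10 Muller glia markers 5 rose and 2 fell (sums 66567 to 71266 against 46211 to 48410), of 8 microglia markers 5 fell (975 to 1684 against 2155 to 3252), and of 10 endothelial markers Pecam1 rose (885 to 960 against 601 to 816). Passing markers that rose numbered 2 of 10 for cones (15938 to 27830 against 10959 to 19387), 2 of 10 for bipolar cells, 2 of 10 for RPE (962 to 2646 against 310 to 1251) and 4 of 10 for lens (566 to 3437 against 153 to 156, where the lens gene Lim2 had 0 counts in all DKO libraries and in TKO replicate 1). No amacrine (9 tested), astrocyte (5) or pericyte (6) marker passed edgeR's test, where 3, 2 and 1 had an unadjusted p under 0.05. All 5 astrocyte markers nevertheless had log2 fold changes below 0, with sums of 2016 to 4483 in TKO and 4929 to 12341 in DKO. Most of these sums was Gfap (1341 to 3640 in TKO and 3948 to 11556 in DKO). The amacrine and pericyte sums overlapped between the genotypes. The red blood cell genes Hba-a1, Hba-a2, Hbb-bs and Hbb-bt had 0 counts in every library, while Alas2 had 39.3 to 43.2 normalized counts in TKO and 8.76 to 15.1 in DKO. The part of these differences in the values of the HIF genes was not tested, and in such bulk samples fewer cells of a type cannot be told apart from less RNA per cell.

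The members covered a wide range of levels. Counts were divided by the exon length of each gene and by the scaled library size, which gives CPM per kb of exon, the only scale on which different genes are compared here. In DKO retinae the order was Hif1a (109 ± 1.69, mean ± SD, n = 3 here and for the values that follow), Bnip3 (71.0 ± 3.24), Vegfa (40.6 ± 5.23), Egln1 (24.9 ± 0.970), Epas1 (16.5 ± 4.19), Ankrd37 (10.6 ± 1.59), Arnt (7.04 ± 0.478), Egln3 (1.71 ± 0.104), Hif3a (0.763 ± 0.0471) and Adm (0.739 ± 0.0435). The last 2, Hif3a and Adm, overlapped between DKO libraries, as no other neighbours in that order did. Among the alpha subunits Hif1a was thus the most abundant on this scale and Hif3a the least. In TKO retinae Hif1a stood at 140 ± 13.1, Bnip3 at 84.6 ± 4.68, Vegfa at 47.2 ± 3.50 and Epas1 at 26.5 ± 3.04. Egln1 (26.2 ± 1.20) came directly after Epas1 in the TKO order, and the libraries of this pair overlapped. Below them were Ankrd37 (13.0 ± 1.30), Arnt (8.57 ± 0.938), Egln3 (2.19 ± 0.454), Hif3a (1.90 ± 0.0874) and Adm (0.440 ± 0.116). Egln3 and Hif3a also overlapped between TKO libraries. With the length of the longest transcript in place of the exon length, 6 of the 10 ranks held in DKO, where Epas1 and Ankrd37 exchanged places, as did Hif3a and Adm, and all 10 held in TKO.

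**Figure D1:**
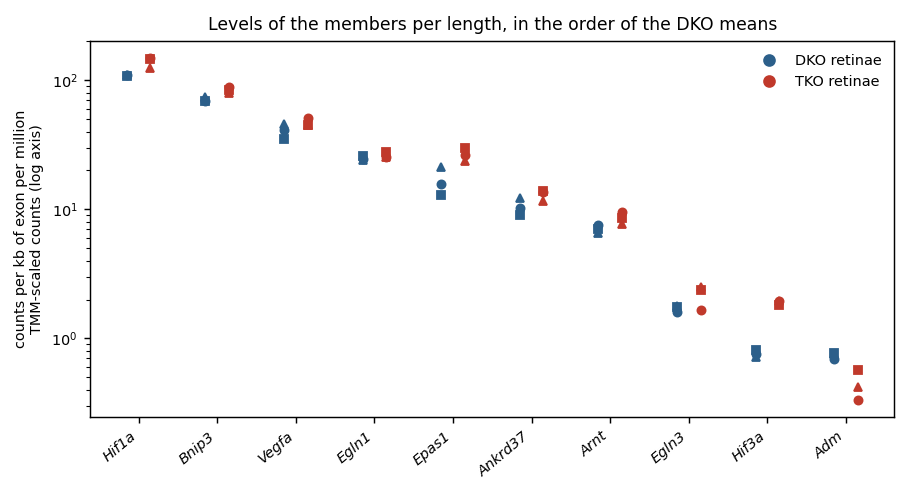
TMM-scaled CPM per kb of exon (log axis) of the 10 HIF pathway genes in each DKO and TKO library, ordered by the DKO means. Points are single libraries, with circles for replicate 1, squares for replicate 2 and triangles for replicate 3. The genes run from Hif1a, at means of 109 in DKO and 140 in TKO, down to Adm, at 0.739 in DKO and 0.440 in TKO.

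The promoters of the members are shown because the motif that HIF binds can be read in them. The members were not selected by searching for it, but several are known as HIF targets, so its share among them is no independent evidence. The RefSeq promoter table for GRCm38.p6 holds windows of 300 bases (250 before and 50 after an annotated start) for 9 of the 10 members, all but Epas1, with 2 windows for Vegfa. The core of the hypoxia response element was searched as ACGTG or GCGTG on both strands. It is present in 9 of these 10 windows (90.0%), against 43.8% of 32851 windows in the whole table and 58.0% of the 15712 windows of genes that entered the fit. The 9 include the downstream of the 2 Vegfa windows, which lies inside the gene, and not the upstream one. The form ACGTG alone is in 60.0% of the member windows, 19.6% of all windows and 23.7% of the windows of fitted genes. The form ACGTG can be part of the E-box CACGTG, which other factors bind and which is in 2 of the member windows (20.0%) and 7.15% of all windows. The 250 bases upstream of the start are given for Hif1a, the member with the highest level, Hif3a, the member with the largest fold difference between the genotypes, Bnip3, with the most matches, and Ankrd37, with the next most. Each is written 5′ to 3′ on the strand of its gene, from GRCm38.p6, and capitals mark ACGTG or GCGTG read on either strand (a match on the other strand appears as CACGT or CACGC).
Hif1a (chr12:73907617-73907866, plus strand): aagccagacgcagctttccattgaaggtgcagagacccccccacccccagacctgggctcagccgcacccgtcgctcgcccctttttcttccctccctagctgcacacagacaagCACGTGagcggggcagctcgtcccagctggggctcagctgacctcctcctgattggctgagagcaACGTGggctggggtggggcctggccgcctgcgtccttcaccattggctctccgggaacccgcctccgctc
Hif3a (chr7:17062428-17062677, minus strand): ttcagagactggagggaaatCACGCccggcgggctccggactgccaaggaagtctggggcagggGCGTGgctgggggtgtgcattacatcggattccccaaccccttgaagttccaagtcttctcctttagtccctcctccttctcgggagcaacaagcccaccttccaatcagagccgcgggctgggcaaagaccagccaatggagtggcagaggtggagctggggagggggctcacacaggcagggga
Bnip3 (chr7:138909507-138909756, minus strand): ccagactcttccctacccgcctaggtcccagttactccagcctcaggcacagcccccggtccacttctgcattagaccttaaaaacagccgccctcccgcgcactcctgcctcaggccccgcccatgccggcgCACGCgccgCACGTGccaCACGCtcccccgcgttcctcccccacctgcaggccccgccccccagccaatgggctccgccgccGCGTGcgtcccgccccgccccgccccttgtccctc
Ankrd37 (chr8:45999851-46000100, minus strand): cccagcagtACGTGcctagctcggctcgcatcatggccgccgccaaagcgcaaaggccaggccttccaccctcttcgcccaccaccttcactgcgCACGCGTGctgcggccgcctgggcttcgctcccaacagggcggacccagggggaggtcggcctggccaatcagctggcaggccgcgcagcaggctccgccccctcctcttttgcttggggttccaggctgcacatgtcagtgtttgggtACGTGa

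Counted from the start, the Hif1a matches begin at -135, -134 and -70, the first pair being 1 CACGTG read on both strands. Hif3a has GCGTG matches at -230 and -186 and no ACGTG. Bnip3 has 5 matches between -117 and -35, of which a pair is again 1 CACGTG, and Ankrd37 has 4, from -241 to -6. Egln1 and Adm have 2 matches each, and Arnt and Egln3 have 1 each. Of the Vegfa windows, the one at the downstream start (46025114-46025413) holds 2 matches. It lies inside the GENCODE span of the gene (46016993 to 46032369), and whether it acts as a promoter was not tested. The window at the upstream start (46032328-46032627), at the 5′ end of that span, holds none. The Hif1a and Ankrd37 windows also lie inside the GENCODE spans of their genes. Among the windows of the other pathway lists described below, the motif is in 66.7% for oxygen sensing and HIF control, 79.3% for glycolytic targets, 73.8% for other hypoxia targets and 52.6% for VEGF and adrenomedullin signalling. A match is a description of letters and not a site of binding.

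The alpha subunits had higher means in TKO retinae. Hif1a, the ubiquitous oxygen-regulated subunit, lies on GRCm38 chromosome 12 from 73901375 to 73947530 on the plus strand, with 11127, 10941 and 9349 normalized counts for TKO replicates 1 to 3 against 8121, 7977 and 8230 for DKO replicates 1 to 3. Every TKO library was above every DKO library, and the log2 fold change was 0.37 (standard error 0.101), a ratio of 1.29. Epas1, which encodes HIF-2alpha, a subunit best known in endothelium and glia (chromosome 17, 86753700 to 86833410, plus strand), had 1862, 2090 and 1660 normalized counts in TKO and 1102, 907 and 1490 in DKO. Its groups also did not overlap, but DKO replicate 3 stood well above the other 2 DKO libraries. Its log2 fold change was 0.68 (standard error 0.173), and 0.90 without DKO replicate 3.

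Hif3a encodes an alpha subunit whose short forms inhibit the other ones (chromosome 7, 17031507 to 17062427, minus strand). It had 166, 153 and 164 normalized counts in TKO and 64.0, 69.2 and 61.3 in DKO. The libraries of each genotype lay close together and far from those of the other, with a log2 fold change of 1.31 (standard error 0.151), a ratio of 2.48, which stayed between 1.27 and 1.36 with any 1 library left out. Of the 10 members Hif3a had the largest log2 fold change, and per exon length its level was above that of Adm alone. Arnt, the common dimer partner, which also pairs with other factors of its family (chromosome 3, 95434388 to 95497240, plus strand), had 964, 866 and 774 normalized counts in TKO and 762, 712 and 666 in DKO. The lowest TKO library was just above the highest DKO library, and the log2 fold change was 0.28 (standard error 0.102).

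Both prolyl hydroxylases overlapped between the genotypes. Egln1, which encodes PHD2, the main oxygen sensor of the pathway (chromosome 8, 124908587 to 124949324, minus strand), had 1164, 1254 and 1155 normalized counts in TKO and 1120, 1181 and 1096 in DKO. The groups overlapped, and the log2 fold change of 0.073 was smaller than its standard error of 0.0747. It turned to -0.086 with library size as the only scaling. Egln3, which encodes PHD3 and is itself a hypoxia target in many cells (chromosome 12, 54178981 to 54203860, minus strand), had 56.2, 80.0 and 84.7 normalized counts in TKO and 53.6, 58.7 and 60.4 in DKO. TKO replicate 1 lay inside the DKO range and the other TKO libraries above it, with a log2 fold change of 0.35 (standard error 0.218), or 0.51 without TKO replicate 1.

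Of the 4 target genes 3 had higher means and 1 a lower mean in TKO retinae. Vegfa, the secreted angiogenic ligand (chromosome 17, 46016993 to 46032369, minus strand), had 2776, 2448 and 2447 normalized counts in TKO and 2216, 1914 and 2481 in DKO. DKO replicate 3 exceeded 2 of the 3 TKO libraries, and the log2 fold change was 0.21 (standard error 0.110), or 0.31 without that library. Bnip3, a mitochondrial protein of mitophagy (chromosome 7, 138890836 to 138909519, minus strand), had 2560, 2422 and 2291 normalized counts in TKO and 1981, 1979 and 2141 in DKO. These groups did not overlap, and the log2 fold change was 0.25 (standard error 0.0793).

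Ankrd37, an ankyrin repeat gene known mainly as a HIF-1 target (chromosome 8, 45996902 to 46005707, minus strand), had 266, 268 and 223 normalized counts in TKO and 201, 177 and 238 in DKO. As for Vegfa, DKO replicate 3 lay inside the TKO range, and the log2 fold change of 0.30 (standard error 0.149) was 0.42 without it. Adm, which encodes the vasodilator peptide adrenomedullin (chromosome 7, 110627661 to 110629820, plus strand), was the 1 member with a lower mean in TKO. It had 6.88, 11.6 and 8.59 normalized counts in TKO and 14.1, 15.8 and 15.5 in DKO, which were 6, 11 and 7 raw counts against 15, 18 and 18. The groups did not overlap, but the counts are few, and the log2 fold change of -0.73 had a standard error of 0.357.

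**Figure D2:**
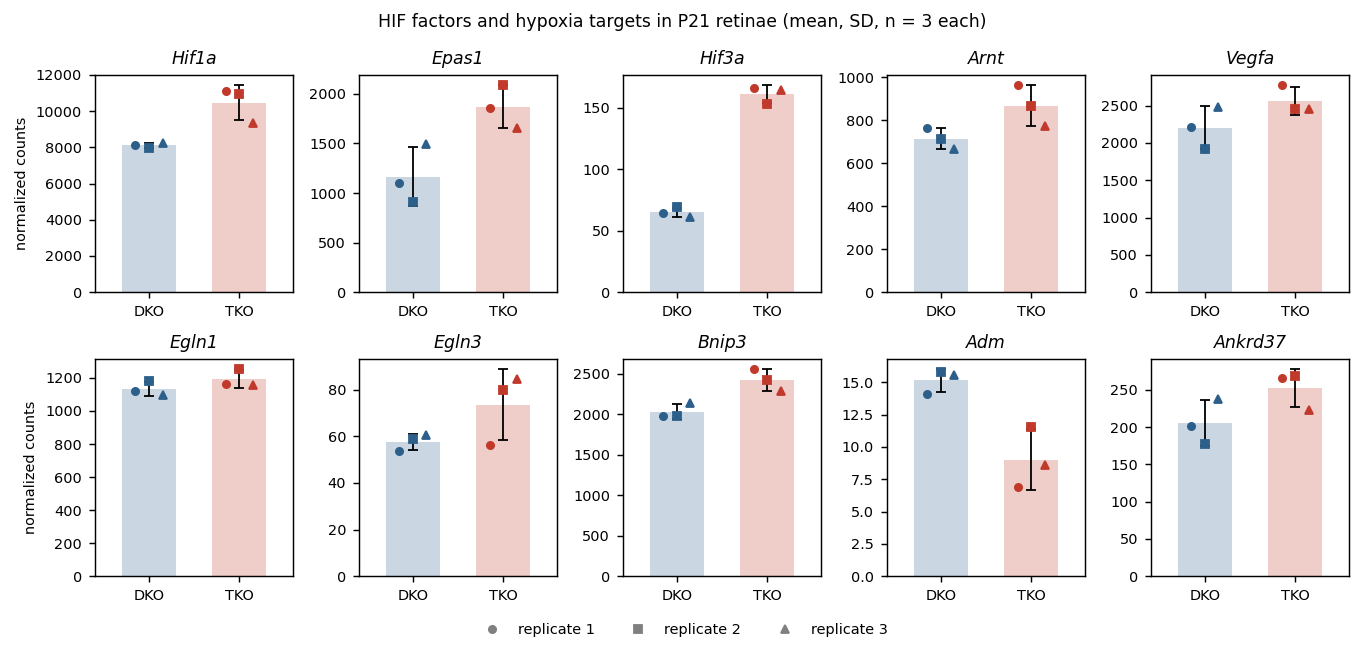
Normalized counts of each of the 10 genes in the 3 DKO and 3 TKO libraries, 1 panel a gene, with each y axis starting at 0, bars for the group mean and whiskers for the SD. Hif1a, Epas1, Hif3a, Arnt and Bnip3 lie higher in every TKO library than in every DKO library, Adm lies lower, and Vegfa, Egln1, Egln3 and Ankrd37 overlap.

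Across the 10 genes the median log2 fold change was 0.29, with 9 values above 0 and 1 below (Egln1 joined it with library size as the only scaling). In 5 of them every TKO library was above every DKO library, which held for 18.0% of all genes tested, and in 1 every TKO library was below, which held for 20.6%. In edgeR's fit 3 of the 10 were counted at an adjusted p of at most 0.05, all with a higher TKO level (7.35% of all genes were with a higher and 9.20% with a lower TKO level). Of these, 1 also reached 1 on the absolute log2 scale with a mean of 10 or more normalized counts (1.97% of all genes did so with a higher and 4.38% with a lower TKO level). Over all genes these adjusted p-values gave 1243 higher and 1556 lower genes, or 778 and 2610 with library size as the only scaling. Since the genes were selected on this contrast, nothing is read from these counts. They also depended on single libraries, with 1 to 4 members counted when 1 library was left out. DESeq2 counted 4 members.

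**Figure D3:**
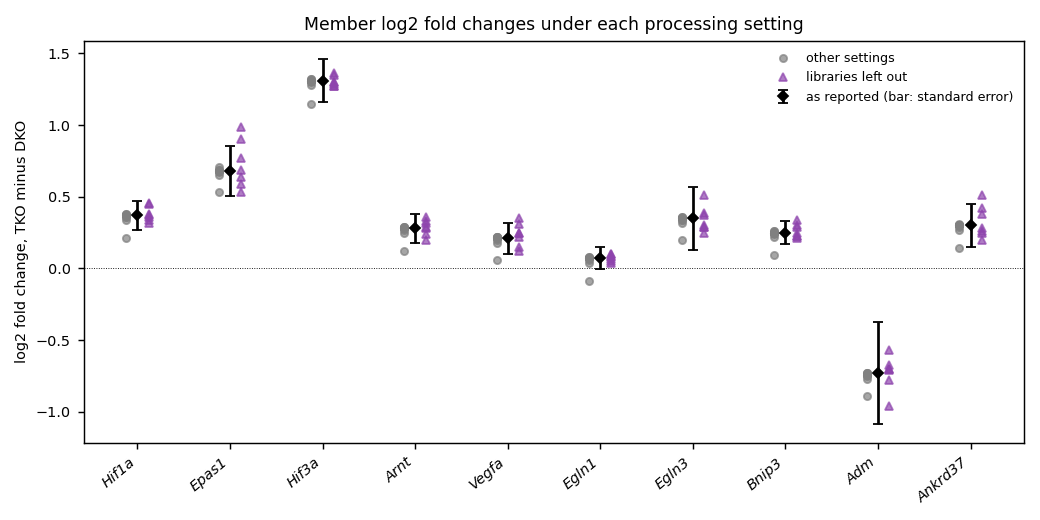
Log2 fold change, TKO minus DKO, of the 10 genes as reported (diamond, bar for the standard error), under other scalings, filters and tools (circles) and with libraries left out (triangles). Hif3a stays between 1.15 and 1.36, Adm stays below 0, and Egln1 is the 1 gene that crosses 0, at -0.086.

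The members differed in how their libraries were ordered within a genotype. Hif1a, Vegfa and Bnip3 had the library order of the summed rod markers in both genotypes (replicates 1, 2, 3 from high to low in TKO and 3, 1, 2 in DKO), an order found in 4.8% of all genes tested. Epas1 and Ankrd37 had that of the summed endothelial markers (2, 1, 3 in TKO and 3, 1, 2 in DKO), found in 2.53% of all genes. The summed lens markers had this same order. Their sums were 650, 3437 and 566 in TKO replicates 1 to 3 and 155, 153 and 156 in DKO replicates 1 to 3. Some ranks behind these shared orders were near-ties. As log2 levels relative to the DKO mean, Vegfa stood at 0.16 in TKO replicate 2 and also in TKO replicate 3. Bnip3 stood at -0.037 and -0.039 in DKO replicates 1 and 2, and Ankrd37 at 0.38 and 0.4 in TKO replicates 1 and 2. Hif1a spanned only -0.024 to 0.021 among the DKO libraries, where the rod sums spanned -0.32 to 0.61. A shared order therefore gives ranks and not the size of the differences. Hif3a had neither the rod nor the endothelial order (1, 3, 2 in TKO and 2, 1, 3 in DKO), and its libraries differed little within a genotype. Relative to the mean of the DKO log2 levels, Hif3a was 1.36, 1.24 and 1.34 on the log2 scale in TKO replicates 1 to 3. The summed markers were 2.24, 2.02 and 1.22 for rods, 1.05, 0.73 and 0.25 for cones, 0.59, 0.56 and 0.49 for Muller glia and 0.44, 0.49 and 0.37 for endothelium. Microglia and dividing cell markers were below 0 in these libraries. Glul, with means of 31230 normalized counts in TKO and 14069 in DKO, weighs heavily in the Muller glia sum. Of the 10 Muller glia markers 5 rose and 2 fell, Lhx2 (log2 fold change -0.68) and Sox9 (-1.02). Whether rods, vessels or other cells set the levels of the members was not tested.

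**Figure D4:**
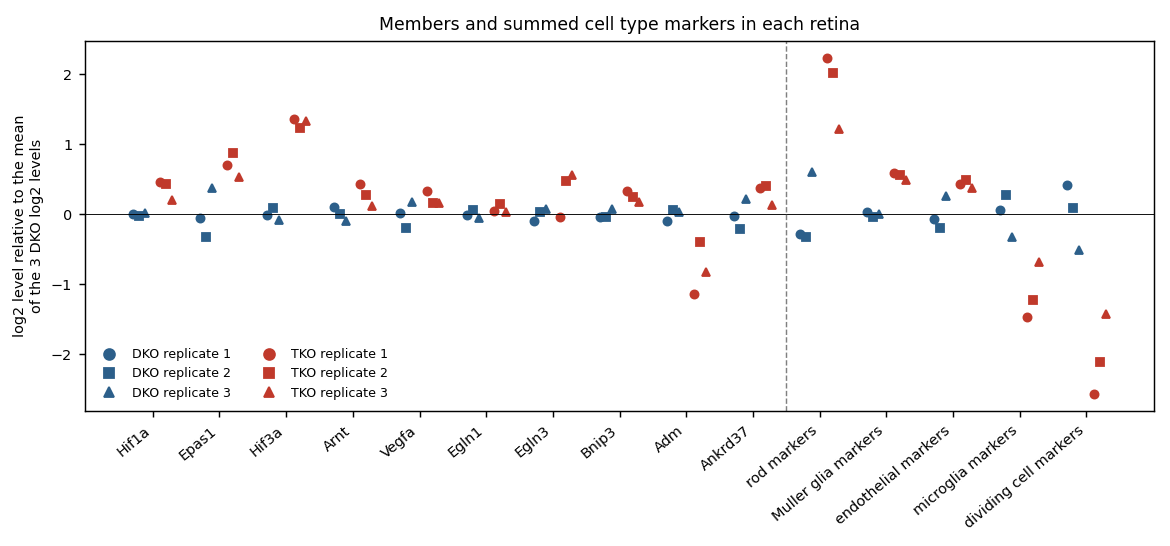
Log2 level of the members and of summed cell type markers in each library, relative to the mean of the 3 DKO log2 levels, with circles, squares and triangles for replicates 1, 2 and 3. Rod markers lie between 1.22 and 2.24 in the TKO libraries and between -0.32 and 0.61 in the DKO libraries, and Hif3a lies between 1.24 and 1.36 in the TKO libraries. Muller glia markers lie between 0.49 and 0.59 and endothelial markers between 0.37 and 0.49 in the TKO libraries.

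The machinery around the members gave a mixed picture. This list, the pathway lists that follow and the marker lists above were chosen with earlier results of these data known. Their counts and p-values are therefore descriptions and no independent evidence. Of 21 listed genes of oxygen sensing and HIF control, 3 rose, 1 fell and 17 did not pass edgeR's test, and the median log2 fold change was 0.13, against -0.011 over all genes, or -0.026 against -0.17 with library size as the only scaling. By the same test 7.35% of all genes rose and 9.20% fell. Usp33, a deubiquitinase of the VHL pathway, had 4156, 3373 and 2840 normalized counts in TKO and 2301, 2120 and 2199 in DKO (log2 fold change 0.65, standard error 0.133, edgeR adjusted p = 0.016). Hif1an, the asparaginyl hydroxylase that blocks coactivator binding to HIF alpha, rose by 0.31 on the log2 scale (edgeR adjusted p = 0.0252), and the coactivator gene Ep300 by 0.44 (edgeR adjusted p = 0.0439). Arnt2, the neuronal paralogue of Arnt, fell, with 547, 714 and 891 normalized counts in TKO and 1407, 1315 and 1119 in DKO (log2 fold change -0.84, edgeR adjusted p = 0.0153). The chaperone gene Hsp90aa1 (log2 fold change 0.38, edgeR adjusted p = 0.0566) and Gnb2l1, which encodes the scaffold RACK1 (-0.13, edgeR adjusted p = 0.299), did not pass. The 3 higher genes became 1 without TKO replicate 1, 0 without TKO replicate 2, DKO replicate 1 or DKO replicate 2, and 6 without DKO replicate 3, and Arnt2 did not pass without TKO replicate 2, DKO replicate 1 or DKO replicate 2 (highest adjusted p 0.0649). Hif1an, Ep300 and Arnt2 were named after their values were seen.

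The glycolytic targets that passed the test were all higher in TKO retinae. Of 20 listed genes 19 were tested, of which 4 rose, 0 fell and 15 did not pass edgeR's test (12 higher and 0 lower at an unadjusted p under 0.05, and 12 higher and 0 lower in DESeq2), with 18 of 19 log2 fold changes above 0 (48.8% of all genes tested were) and a median of 0.42. Over all genes tested, 7.35% rose and 9.20% fell in edgeR's test. Hk2, the inducible hexokinase that photoreceptors also use for aerobic glycolysis, had 2448, 2485 and 1152 normalized counts in TKO and 508, 545 and 856 in DKO. The groups did not overlap, although TKO replicate 3 was under the other TKO libraries and DKO replicate 3 over the other DKO libraries (log2 fold change 1.67, standard error 0.308, edgeR adjusted p = 0.0118). Pkm, the pyruvate kinase of muscle and brain, rose by 0.69 (edgeR adjusted p = 0.0272), the lactate dehydrogenase gene Ldha by 0.70 (edgeR adjusted p = 0.0327) and the hexokinase gene Hk1 by 0.80 on the log2 scale (edgeR adjusted p = 0.0435). Gapdh (0.31, edgeR adjusted p = 0.19) and Aldoa (0.56, edgeR adjusted p = 0.0625), both of central glycolysis, did not pass. Eno1 was not tested, with 2 counts in all, while Eno1b, a symbol of a near-identical copy, had 433 to 596 raw counts, so reads of that enzyme are uncertain. The 4 genes became 1 without TKO replicate 1, 0 without TKO replicate 2, DKO replicate 1 or DKO replicate 2, 11 without TKO replicate 3 and 13 without DKO replicate 3. The rod marker sums given above moved in the same direction between the genotypes, and their part in these values was not tested. Ldha and Hk1 were named after their values were seen.

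Of 43 other hypoxia targets 42 were tested, of which 6 rose, 0 fell and 36 did not pass edgeR's test (4 lower at an unadjusted p under 0.05, and 1 lower in DESeq2). The shares of all genes that passed edgeR's test were 7.35% higher and 9.20% lower. The median log2 fold change was 0.13, or -0.03 with library size as the only scaling. The genes that rose were Kdm4c, a histone demethylase (log2 fold change 0.98, edgeR adjusted p = 0.00733), Vldlr, a lipoprotein receptor (0.97, edgeR adjusted p = 0.00733), the nuclear receptor gene Rora (0.70, edgeR adjusted p = 0.0108), P4ha1, a collagen prolyl hydroxylase (0.47, edgeR adjusted p = 0.0153), Bhlhe41, a clock repressor (0.44, edgeR adjusted p = 0.0394), and Ak4, a mitochondrial adenylate kinase (0.36, edgeR adjusted p = 0.0376). Vldlr had 5316, 4459 and 3553 normalized counts in TKO and 2357, 2101 and 2365 in DKO. Vldlr and Kdm4c passed with any 1 library left out, whereas the count of 6 became 2 without TKO replicate 2 or DKO replicate 2, 3 without DKO replicate 1 and 10 without TKO replicate 3. Ndrg1, a stress gene often used as a hypoxia marker, had a log2 fold change of 0.15 (edgeR adjusted p = 0.251). Kdm4c, P4ha1, Bhlhe41 and Ak4 were named after their values were seen.

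In the list of VEGF and adrenomedullin signalling, the genes that passed were Dll4, Angpt1, Nrp1 and Nrp2, all lower in TKO retinae. The adrenomedullin receptor genes Calcrl, Ramp2 and Ramp3 and the related Ramp1 did not pass. Their log2 fold changes were 0.50, 0.029, 0.90 (edgeR adjusted p = 0.0563) and -0.20, in that order. These receptor genes were named after their values were seen. Of 23 listed genes 22 were tested, of which 0 rose, 4 fell and 18 did not pass edgeR's test (1 higher at an unadjusted p under 0.05, and 1 higher in DESeq2), with a median log2 fold change of -0.15. Among all genes tested 7.35% rose and 9.20% fell. Dll4, a Notch ligand of endothelial tip cells and of newborn retinal neurons, had 28.7, 22.1 and 57.7 normalized counts in TKO and 276, 229 and 155 in DKO (log2 fold change -2.62, standard error 0.359, edgeR adjusted p = 0.00691). Every TKO library was below every DKO library, and the same held for the TIE2 ligand gene Angpt1 and for Nrp1. Angpt1 had 41.3, 41.1 and 73.6 normalized counts in TKO and 158, 128 and 118 in DKO (log2 fold change -1.38, edgeR adjusted p = 0.0129). Nrp1, a coreceptor of VEGF-A and of semaphorins, had 357, 360 and 431 normalized counts in TKO and 927, 725 and 748 in DKO (log2 fold change -1.06, edgeR adjusted p = 0.00554). Nrp2 fell by 0.41 on the log2 scale (edgeR adjusted p = 0.0414). The VEGF receptor genes Kdr (-0.21, edgeR adjusted p = 0.333) and Flt1 (0.23, edgeR adjusted p = 0.249) did not pass, while the summed endothelial markers were 885 to 960 normalized counts in TKO and 601 to 816 in DKO. Dll4 and Nrp1 passed with any 1 library left out, Angpt1 did not without TKO replicate 2, DKO replicate 1 or DKO replicate 2 (highest adjusted p 0.0597), and the count of 4 became 2 without any of the same 3 libraries. The summed markers of dividing cells, which differed in the same direction, are given above, and their part in these values was not tested.

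**Figure D5:**
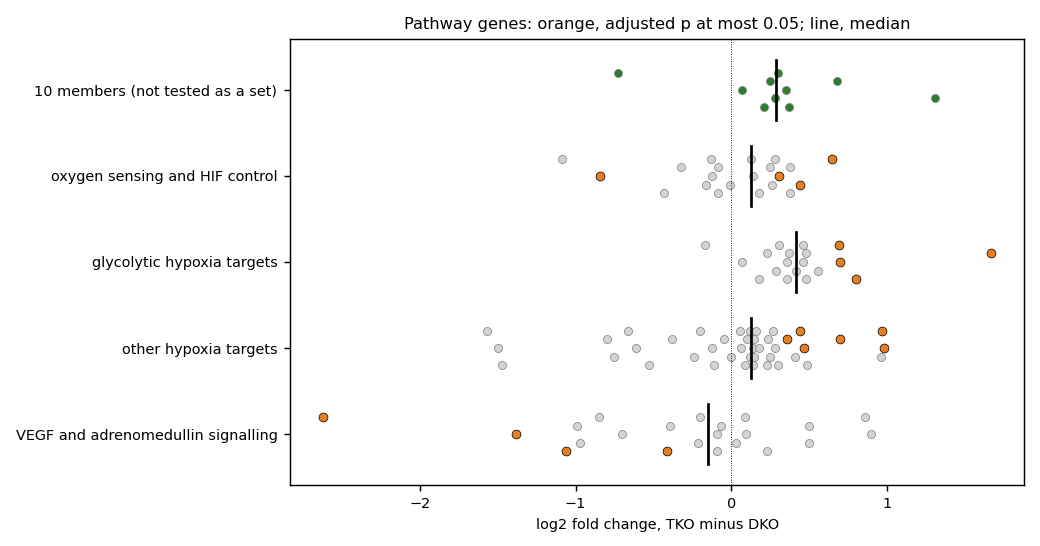
Log2 fold change, TKO minus DKO, of each tested gene of the 4 pathway lists and of the 10 members (green), 1 point a gene, with a line at each median and the list genes that passed edgeR's test in orange. The medians are 0.13 for oxygen sensing and HIF control, 0.42 for glycolytic targets, 0.13 for other hypoxia targets and -0.15 for VEGF and adrenomedullin signalling.

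Some reads of the members cannot be assigned with certainty, because exons of annotated genes overlap and the strand setting of the counting is not given in the sources used here. Exons of Bnip3 share 504 bases (22.3% of its exon length) with an antisense gene, Gm45507. Exons of Ankrd37 share 349 bases (22.7%) with Lrp2bp and 57 bases (3.7%) with Ufsp2, both on the opposite strand, and 330 bases (5.6%) of Hif1a lie opposite Gm15283. Hif1a also shares 148 bases (2.51%) with Gm49321 on the same strand, which is uncertain under any strand setting. By symbol, Lrp2bp and Ufsp2 are among the 16904 genes tested, and Gm45507, Gm15283 and Gm49321 are not. These overlaps are between annotated exons of GRCm38 in GENCODE and are not measured from reads.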

How the data were processed

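The samples were whole retinae (P21), with 3 RNA-seq libraries for the DKO and 3 for the TKO genotype, grouped by the sample titles. The deposited values are raw counts of read pairs per gene, 1 column a library, made by the authors from a TruSeq Stranded mRNA kit. The paper's methods name STAR and HTSeq with an Ensembl annotation, whereas the submitters' processing notes name TopHat2, featureCounts and mm10 (GRCm38). Which pipeline made the table could not be settled, and the strand setting is not given in the sources used here. Reads of genes that have a near-identical copy may be split between them.

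Genes with a sum under 10 over the 6 libraries were removed, which left 16904 of 24062. The quasi-likelihood F test of edgeR 4.0.16 (R 4.3.3) was applied after TMM scaling, with Benjamini-Hochberg adjustment over all genes tested. A gene passed at an adjusted p of at most 0.05, and the stricter rule of the study also asked for 1 or more on the absolute log2 scale and for a mean of 10 or more normalized counts. Standard errors were obtained from each log2 fold change and its F statistic. DESeq2 1.42.0 was an alternative, and the edgeR test was tested on simulated data. Totals of 10343907 to 14203098 counts set the precision, and the spread between replicates exceeded sampling noise (8.61 to 25.3 in chi-square over its degrees of freedom). Coordinates, exon lengths and overlaps come from GENCODE M21 on GRCm38, and promoter windows from RefSeq on GRCm38.p6.

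The members and all lists were chosen with earlier results of these data known, so no p-value is given for a member. The p-values of list genes are given for description only. Named genes were the members, the passing genes of each pathway list that reached 1 on the absolute log2 scale (at most 5 in each direction), the 3 genes of each list with the largest mean count, and Hells, Rb1 and Rbl1. Other genes are said to have been named after their values were seen. Alternatives were other scalings, filters and dispersion estimates, a block on replicate number, libraries left out, another gene length and another motif. The removal of rod, cone and lens markers before scaling was added after seeing the data. The protein sequences were not analysed here.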

Additional observations from a re-analysis of the deposited data

How the results depend on the processing

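Of 169 recomputed log2 fold changes of the 10 members, 160 moved by less than the SD between replicates, 8 moved by more but kept their direction and 1 turned. With library size as the only scaling Egln1 turned to -0.086, Ndrg1 to -0.0077 and Rbl1 to -0.036, and so did the medians of the oxygen sensing list (-0.026) and of the other hypoxia targets (-0.03), along with the median of all genes (from -0.011 to -0.17). Genes passing numbered 1243 higher and 1556 lower as reported, 778 and 2610 with library size alone, 2167 and 2496 without both replicates 3, and 24 and 82 with the replicate number as a block. Same-numbered libraries did not deviate together (correlations 0.072, -0.041 and -0.16), so the numbers were not taken as pairs, and edgeR with the block left 0 members and 0 genes of each pathway list passing.

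With library size alone, 1 gene of oxygen sensing was higher and 2 lower, 1 glycolytic gene was lower and 3 other targets were lower. DESeq2 counted 12 glycolytic genes higher, 1 other target lower and 1 gene of VEGF signalling higher, the fit without a filter gave 7, 1 and 1 for these, and robust estimates gave 7 glycolytic genes. Without both replicates 3, the counts were 5 members, 8 genes of oxygen sensing, 15 glycolytic genes, 11 other targets and 1 gene of VEGF signalling higher, and 3 other targets lower. With 1 library left out, all genes ranged from 214 to 1617 higher and 404 to 1973 lower, members from 1 to 4 higher, oxygen sensing from 0 to 6 higher and 0 to 1 lower, glycolytic genes from 0 to 13 higher, other targets from 2 to 10 higher and 0 to 2 lower, and VEGF signalling from 0 to 1 higher and 2 to 4 lower. Rbl1 ranged from -0.15 without TKO replicate 1 to 0.36 without DKO replicate 3, and was -0.0016 without DKO replicate 1. The cause of these changes was not tested. The ACGTG form alone lowered the share of windows from 90.0% to 60.0% for the members and from 43.8% to 19.6% for all windows, and the longest transcript kept 6 of 10 DKO ranks. Adm, at 6 to 18 counts a library, is limited by depth and had no value under a filter of at least 10 counts in each library.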

Other observations

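Some PAS domain genes outside the HIF factors, a list written after the other results were seen, passed the test. Of 17 such genes 15 were tested, of which 5 rose, 2 fell and 8 did not pass edgeR's quasi-likelihood test (7.35% of all genes rose and 9.20% fell), with a median log2 fold change of 0.20. Ahr, the aryl hydrocarbon receptor, which also dimerizes with ARNT, had 964, 1158 and 820 normalized counts in TKO replicates 1 to 3 and 431, 410 and 756 in DKO replicates 1 to 3 (log2 fold change 0.88, standard error 0.236, edgeR adjusted p = 0.0383). The groups did not overlap, although DKO replicate 3 came close to the lowest TKO library, and Ahr did not pass without TKO replicate 1, TKO replicate 2, DKO replicate 1 or DKO replicate 2 (highest adjusted p 0.132). Per1, a repressor of the circadian clock, rose by 0.69 on the log2 scale (edgeR adjusted p = 0.00706) and passed with any 1 library left out. Per2 rose by 0.40 (edgeR adjusted p = 0.023), the coactivator genes Ncoa2 by 0.52 (edgeR adjusted p = 0.0217) and Ncoa1 by 0.40 on the log2 scale (edgeR adjusted p = 0.0276), and all 3 lost the call without TKO replicate 1, TKO replicate 2, DKO replicate 1 or DKO replicate 2. Npas2 (log2 fold change -0.77, edgeR adjusted p = 0.0311) and Npas3 (-0.74, edgeR adjusted p = 0.035), both transcription factors of neurons, fell, at 60.0 to 81.0 and 45.9 to 50.3 normalized counts in TKO against 106 to 128 and 70.0 to 85.6 in DKO, and both lost the call without any 1 library except TKO replicate 3. The core clock genes Clock (-0.048, edgeR adjusted p = 0.743) and Arntl (0.19, edgeR adjusted p = 0.272) did not pass.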
